A study of Homo sapiens with 13 samples.

Results

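The mRNAs captured with biotinylated miR-23b were compared with those captured with 4 unrelated miRNA duplexes, across all genes of the array table. The miR-23b pull-down comprised 2 of the 13 libraries, and the other 11 served as the comparator. All libraries came from the cell line HEK293T, which derives from human embryonic kidney and carries the SV40 large T antigen. The cells had received 200 pmol of a duplex with biotin on the 3′ end of its guide strand, and were harvested after 24 h for capture on streptavidin beads. The comparator held 3 libraries of miR-27a, 2 of miR-182-iso, 3 of miR-17-5p-iso and 3 of miR-17-5p, where iso marks a variant of the miRNA with a shifted 5′ end. The miR-17-5p-iso and miR-17-5p groups were averaged into 1 family, and this family, miR-27a and miR-182-iso were given equal weight. No library of mock-transfected cells or of total RNA is among the 13. The study amplified an equal mass of captured RNA per sample, and signals were normalized between libraries. A higher signal therefore means a larger share of the RNA in this pull-down than in the others. More capture per mRNA and more of the mRNA in the cells cannot be told apart.

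miRNAs are short RNAs that guide Argonaute proteins to mRNAs, mainly by base pairing through the seed near the 5′ end, and thereby lower the stability or the translation of these mRNAs. miR-23b is transcribed together with miR-27b and miR-24-1 and is known as a regulator of TGFβ, NF-κB and urokinase signaling and of glutamine metabolism. In the RefSeq annotation of GRCh38.p14, the MIR23B hairpin lies on the plus strand of chromosome 9, at chr9:95085208-95085304, within the span of the protein-coding gene AOPEP (chr9:94726699-95150224). MIR27B follows at chr9:95085445-95085541 and MIR24-1 at chr9:95086021-95086088. The guide strands decide what each duplex can pair with, and are therefore given 5′ to 3′ with the seed, bases 2 to 8, in capitals. The RefSeq mature form of miR-23b stands beside the transfected one.
miR-23b guide strand: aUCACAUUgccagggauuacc
hsa-miR-23b-3p: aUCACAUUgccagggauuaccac
miR-27a guide strand: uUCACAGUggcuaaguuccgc
miR-182-iso guide strand: uGGCAAUGguagaacucacacu
miR-17-5p guide strand: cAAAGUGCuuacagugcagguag
miR-17-5p-iso guide strand: uCAAAGUGcuuacagugcaggua
The transfected miR-23b guide had 21 bases and lacked the last 2 of the 23 bases of the mature form, so that its seed was intact. Its seed was identical to that of miR-27a at positions 2 to 6 and at 6 of the 7 seed positions in all, and the guides were identical at 11 of 21 positions. The other guides shared only 1 or 2 seed positions with miR-23b. The passenger strand of the miR-23b duplex carried 1 base, in capitals below, that the study had mismatched to favor loading of the guide.
miR-23b passenger strand: uaaucccuggcaaugugCuag
Transcripts were not searched for the complement of the miR-23b seed here.

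Values were normalized bead array signals on a log2-like scale, from 7.42 to 15.5, for 12007 probes and 8378 genes. The library medians lay between 8.53 and 8.60. The 2 miR-23b libraries were close to each other, with a Pearson correlation over probes of 0.984, against 0.941 to 0.979 between replicates of the other duplexes. Correlations of the miR-23b libraries with the unrelated ones ran from 0.860 to 0.953 and were 0.928 to 0.953 for miR-27a, 0.897 to 0.952 for the miR-17 family and 0.860 to 0.919 for miR-182-iso. Of 13 genes that mark HEK293T cells, 8 were on the table, and LIN28B, CDH2 and VIM had means of 12.14, 12.78 and 11.39 with miR-23b. The other 5 were dim, with NEFM at 8.66, INA at 8.33, KRT8 at 8.20, NEFL at 7.87 and KRT18 at 7.51, near the bottom of the scale. Of 10 markers of other cell types only COL1A1 was on the table, at 7.54 with miR-23b and 7.50 with the unrelated duplexes.

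Among 8378 genes, each represented by its brightest probe, 559 (6.67%) were higher with miR-23b and 272 (3.25%) lower, in the limma fit (p adjusted by Benjamini-Hochberg for all probes, threshold 0.05). Over probes, the numbers were 710 (5.91%) higher and 360 (3.00%) lower. The higher genes had differences from 0.23 to 2.44 with a median of 0.77 on the log2 scale, and the lower genes from -1.98 to -0.29 with a median of -0.66. A difference of at least 1 was reached by 132 of the higher and 38 of the lower genes, and a difference of at least 2 by 6 higher genes and no lower gene. Both miR-23b libraries lay above all 11 others for 384 of the 559 higher genes, and below them for 116 of the 272 lower genes, whereas over all genes this was so for 589 (7.03%) and 274 (3.27%), and over all probes for 6.35% and 3.38%. The number of calls rested on having both miR-23b libraries. Without replicate 1, 25 genes were higher and 6 lower, and without replicate 2 the numbers were 37 and 13, in fits that assume the remaining library to vary like the other groups. Without miR-182-iso replicate 2, they were 290 and 140.

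**Figure D1:**
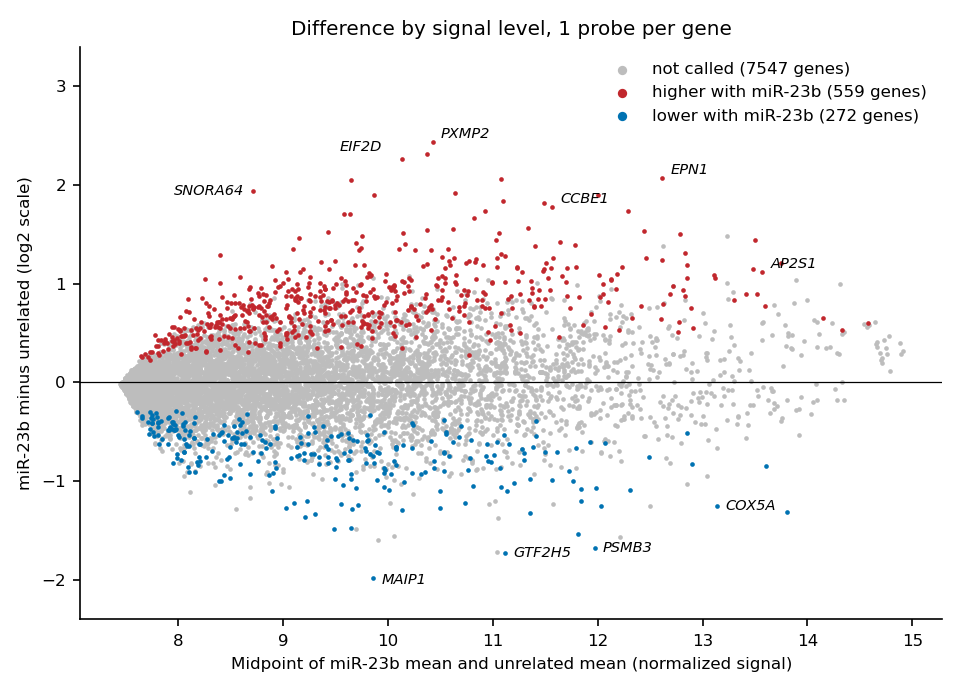
Difference between the miR-23b mean and the unrelated mean (y axis, log2 scale) against the midpoint of the 2 means (x axis, normalized signal) for 8378 genes, 1 point per gene. The 559 higher genes reach 2.44 at PXMP2 and the 272 lower genes reach -1.98 at MAIP1, and differences of both kinds occur over most of the signal range.

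PXMP2, C15orf61, EIF2D and EPN1 had the largest differences. PXMP2, a channel protein of the peroxisomal membrane, gave 11.78 and 11.51 in the miR-23b libraries and 8.92 to 9.59 with a median of 9.18 in the 11 others. Its difference was 2.44 (SE 0.19, adjusted p = 0.000252), and a second, dimmer probe of the gene gave 1.21 (adjusted p = 0.00381). C15orf61, an open reading frame, had 11.74 and 11.31 against 8.71 to 9.61 with a median of 9.09, a difference of 2.32 (SE 0.21). EIF2D, an initiation factor that can deliver tRNA to the ribosome without the canonical ternary complex, had 11.44 and 11.08 against 8.49 to 9.52 with a median of 8.89, a difference of 2.26 (SE 0.21). In these 3 genes the lower miR-23b library stood above the highest unrelated one by 1.92, 1.70 and 1.55. EPN1, epsin 1, an adaptor of clathrin-coated pits that binds ubiquitinated cargo, was among the brighter genes, at 13.59 and 13.70 against 11.30 to 12.14 with a median of 11.61. Its difference was 2.07 (SE 0.16, adjusted p = 0.000252).

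Among called genes whose miR-23b libraries both lay above all 11 others, the next in order of size included regulators of RNA, transcription and the cytoskeleton. RBPMS2, an RNA-binding protein, had 12.28 and 11.93 against a highest unrelated value of 10.55, a difference of 2.06 (SE 0.28). CXXC5, a CXXC-type zinc finger protein that inhibits WNT signaling, had 10.24 and 11.10 against at most 8.97, and its miR-23b libraries were the furthest apart of the 14 genes. SNORA64, a small nucleolar RNA of the class that guides pseudouridylation, had 10.08 and 9.29 against 7.52 to 8.28, so that most unrelated libraries lay near the bottom of the scale. Its difference of 1.94 (SE 0.18) is compressed on that side. ZNF358, a zinc finger gene, differed by 1.92 and TEX261 by 1.90. ARHGAP17 had 12.04 and 11.99 against 9.64 to 10.42, a difference of 1.84 (SE 0.15), and 1.15 on a second probe (adjusted p = 0.00148). TPGS2, a subunit of the tubulin polyglutamylase complex, had 12.51 and 12.30 against 10.26 to 10.92, and its 2 probes gave 1.82 and 1.78. RNASEK, ribonuclease K, and PRELID1, which carries phosphatidic acid within mitochondria, each differed by 1.74. PXMP2, C15orf61, EIF2D, EPN1, SNORA64, ARHGAP17 and TPGS2 kept their call with either miR-23b library left out. RBPMS2, ZNF358, TEX261, CCBE1, RNASEK and PRELID1 lost it without replicate 1 (adjusted p 0.0502 to 0.228), and RBPMS2, CXXC5, ZNF358, TEX261, CCBE1 and PRELID1 lost it without replicate 2 (adjusted p 0.0521 to 0.14), by the same limma fit.

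**Figure D2:**
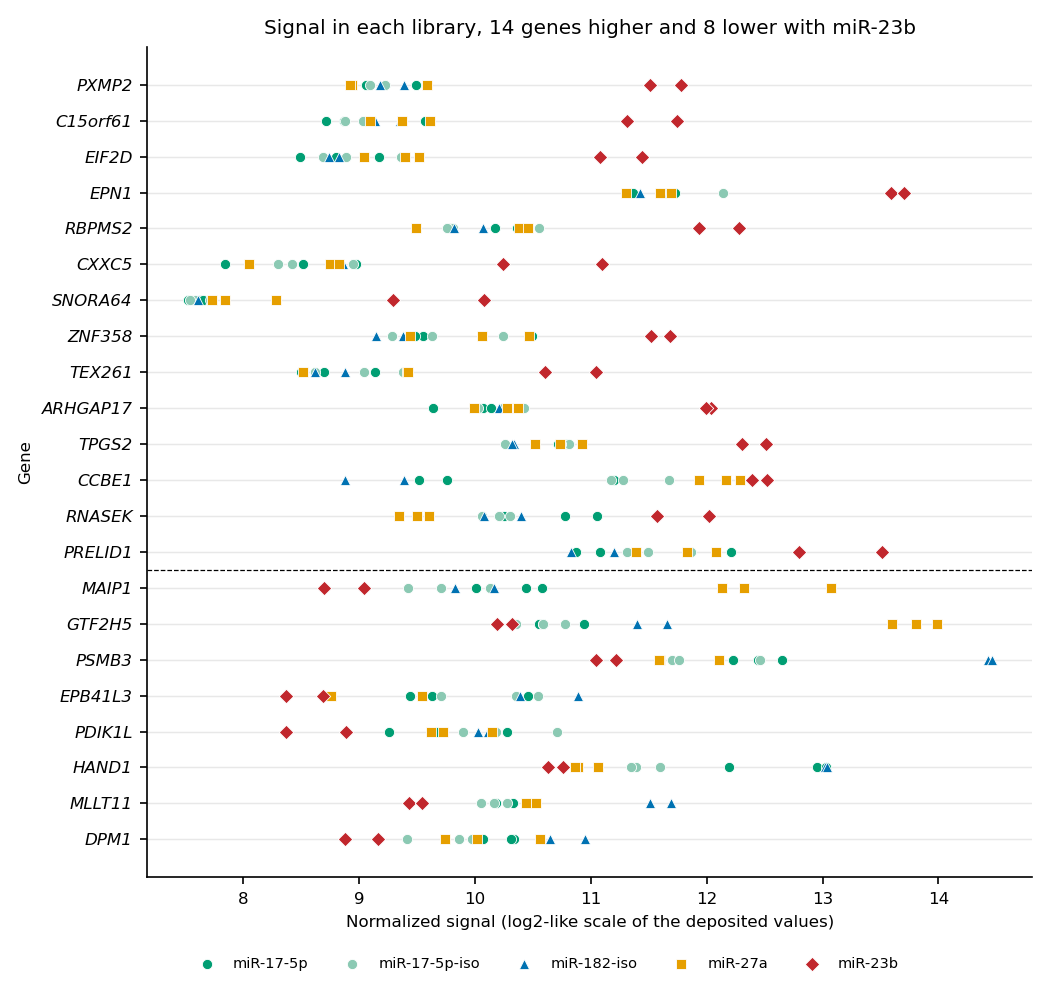
Normalized signal (x axis, log2-like scale) in each of the 13 libraries for the 14 genes with the largest positive and the 8 with the largest negative differences (y axis, split by the dashed line), 1 point per library and 1 color per duplex. By the rule that chose these genes, both miR-23b points lie beyond all 11 others, and for MAIP1, GTF2H5 and PSMB3 the libraries of 1 other duplex stand far to the right.

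Each of the 3 unrelated families was then taken as the comparator on its own, in the same fit. Against miR-27a, 386 genes (4.61%) were higher with miR-23b and 284 (3.39%) lower. Against the miR-17 family, 705 (8.41%) were higher and 471 (5.62%) lower, and against miR-182-iso 1109 (13.2%) and 1034 (12.3%). Of the 559 higher genes, 522 had a miR-23b mean above all 3 family means, and 131 passed the threshold against each family. Of all 4095 genes with a positive difference, 2008 (49.0%) had a mean above all 3, and the same number, 131 (3.20%), passed against each. Of the 3 family means, that of miR-27a was the highest for 310 of the 559 higher genes (55.5%), compared with 49.8% of all genes with a positive difference. That of miR-182-iso was the lowest for 333 (59.6%), compared with 52.0%. For PXMP2 the 3 differences were 2.50 from miR-27a, 2.36 from miR-182-iso and 2.48 from the miR-17 family, and for EPN1 they were 2.12, 2.14 and 1.97. CCBE1, a secreted protein required for lymphatic vessel growth, was unlike these. It had 12.39 and 12.52 with miR-23b, 12.29, 11.93 and 12.17 with miR-27a, and 9.39 and 8.88 with miR-182-iso. Its difference was 0.32 from miR-27a (95% interval -0.59 to 1.24, adjusted p = 0.7), 3.32 from miR-182-iso and 1.69 from the miR-17 family, and its overall difference of 1.78 fell to 1.01 (adjusted p = 0.147, limma) without the miR-182-iso libraries. MIS12, a kinetochore protein, had 13.03 and 12.87 with miR-23b and 13.10, 12.34 and 13.36 with miR-27a. It differed by 0.02 from miR-27a and by 3.37 from miR-182-iso, so that its overall difference of 1.90 came from the other 2 families.

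**Figure D3:**
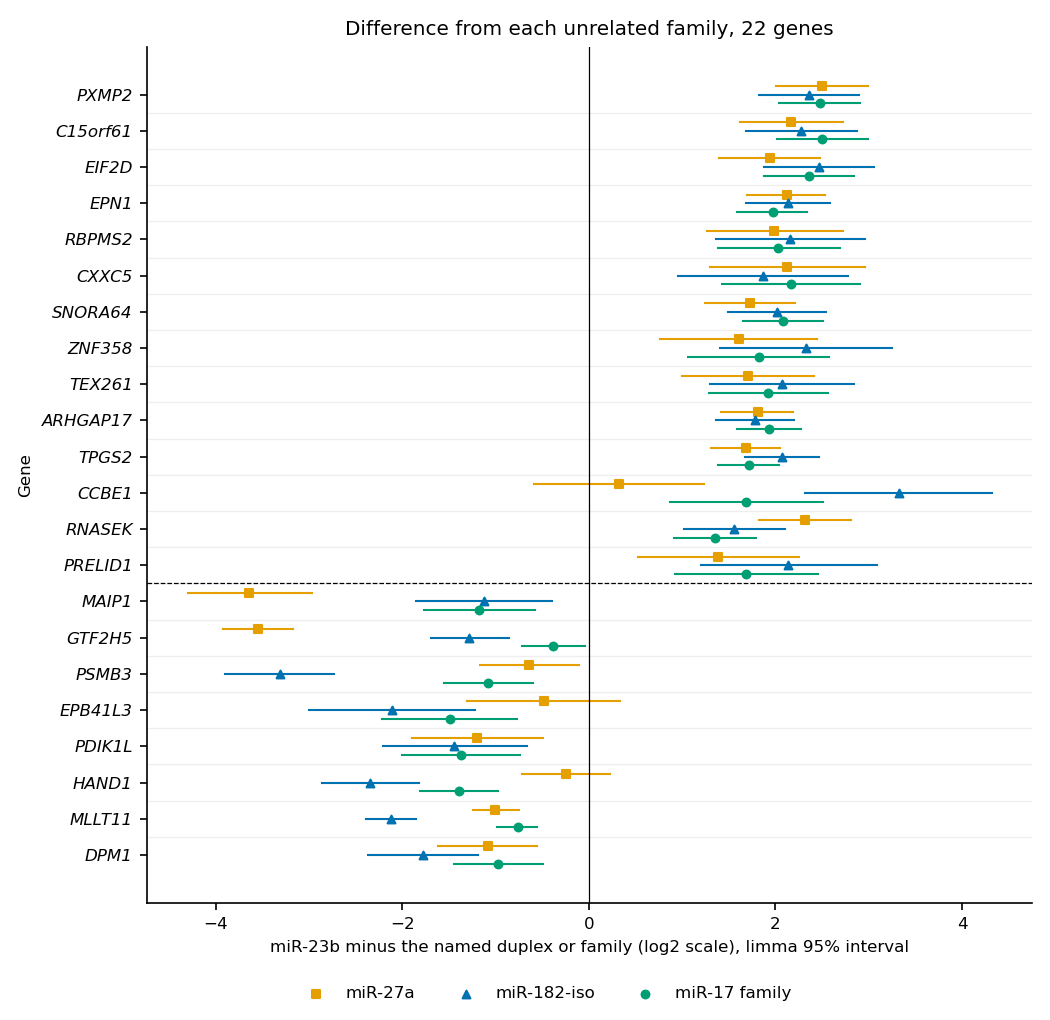
Difference between miR-23b and each unrelated family (x axis, log2 scale) with limma's 95% interval for the same 22 genes (y axis), 1 symbol per family. The 3 symbols of PXMP2 lie between 2.36 and 2.50, whereas those of CCBE1 spread from 0.32 to 3.32 and those of MAIP1 from -3.64 to -1.12.

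Several of the largest negative differences went with a high signal of 1 other duplex. MAIP1, a protein that interacts with the mitochondrial m-AAA protease, had 8.70 and 9.04 with miR-23b, 12.32, 12.13 and 13.07 with miR-27a, and 9.42 to 10.58 in the remaining 8 libraries. Its difference of -1.98 (SE 0.26) was made up of -3.64 from miR-27a, -1.12 from miR-182-iso and -1.18 from the miR-17 family. GTF2H5, the smallest core subunit of TFIIH, which acts in transcription and DNA repair, had 10.32 and 10.19, and 13.81, 13.60 and 13.99 with miR-27a. Its difference from the miR-17 family was only -0.38 (adjusted p = 0.129), beside an overall -1.73. KIF2A, a microtubule-depolymerizing kinesin, followed the same order, with 8.33 and 8.44 against 10.90, 10.65 and 11.60 with miR-27a and at most 9.24 elsewhere. PSMB3, a β subunit of the proteasome core, and HAND1, a developmental transcription factor, had their highest group means with miR-182-iso. PSMB3 had 11.04 and 11.22 with miR-23b and 14.43 and 14.46 with miR-182-iso, and HAND1 had 10.63 and 10.76 against 13.02 and 13.04. HAND1 was not high in miR-182-iso alone, since the miR-17-5p libraries had 12.95, 12.19 and 13.03.

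COX5A, MLLT11 and DPM1 were lower against each of the 3 families. COX5A, a subunit of cytochrome c oxidase, was bright in every library, with 12.65 and 12.38 for miR-23b and 13.53 to 14.11 with a median of 13.81 for the others. It differed by -1.42 from miR-27a, -1.08 from miR-182-iso and -1.25 from the miR-17 family, each past the threshold, and by -1.25 overall (SE 0.10, adjusted p = 0.000281). MLLT11, a fusion partner of MLL in leukemia, had 9.43 and 9.54 against 10.05 to 11.69, a difference of -1.29 (SE 0.09). DPM1, the catalytic subunit of dolichol-phosphate mannose synthase, differed by -1.28, and a second probe gave -1.07 (adjusted p = 0.0272). PDIK1L, a protein kinase, differed by -1.33, and its difference from miR-27a missed the threshold (-1.20, adjusted p = 0.0505). EPB41L3, a protein of the membrane skeleton, differed by -1.36, which was made up of -0.48 from miR-27a (adjusted p = 0.47), -2.11 from miR-182-iso and -1.49 from the miR-17 family. Of all 272 lower genes, 212 had a miR-23b mean below all 3 family means, and 15 passed the threshold against each family. Of all 4283 genes with a negative difference, these numbers were 1735 (40.5%) and 15 (0.350%). GTF2H5 and MLLT11 kept their call with either miR-23b library left out. MAIP1, PSMB3, EPB41L3, PDIK1L, HAND1 and DPM1 lost it without replicate 1 (adjusted p 0.0784 to 0.293), the last 4 also without replicate 2 (adjusted p 0.0563 to 0.134), and EPB41L3 also without miR-182-iso replicate 2 (adjusted p = 0.0624), by limma. PSMB3, EPB41L3 and HAND1 also lost it when both miR-182-iso libraries were left out (adjusted p 0.0506 to 0.113).

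Where a called gene had a further probe, the probes mostly went the same way. Of the 559 higher genes, 126 had another probe, which was also called higher for 46 and lower for none, and 116 of the 150 further probes had a positive difference. Of the 272 lower genes, 64 had another probe, called lower for 15 and higher for none, and 70 of 74 further probes were negative. On chromosome 19 lay 58 of the higher genes (10.4%) and 7 of the lower genes (2.57%), compared with 6.48% of all genes. The median length of the gene in the RefSeq table was 21.1 kb for the higher, 27.3 kb for the lower and 28.9 kb for all genes.

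Genes already tested as miR-23b targets with luciferase reporters formed a list of 34, of which 21 were on the table. None was called in either direction, beside 6.67% and 3.25% of all genes, and their median difference was -0.01, as it was over all genes. At an unadjusted limma p under 0.05, 3 were higher and 2 lower, beside 16.1% and 12.2% of all genes. The comparator included miR-27a, whose seed matched that of miR-23b at 6 of 7 positions. Without the miR-27a libraries PAK2, YES1 and MET were called higher, PRDX3 was called lower, and no other member of the list was called. The comparator here was other pull-downs, which is a different measure from enrichment over mock-transfected controls. Against such controls, the study reported that its own collection of reporter-tested miR-23b targets was over-represented among the genes enriched with miR-23b. PAK2, a kinase that acts on the actin cytoskeleton, stood nearest to a call. It had 11.20 and 11.19 with miR-23b, above all 11 other libraries (9.44 to 10.93, median 10.11), and its difference was 0.90 (SE 0.25, adjusted p = 0.0501). YES1, a SRC family kinase, had 10.61 and 10.84, below the miR-27a mean of 10.88 and above most other libraries, with a difference of 0.52 (adjusted p = 0.12). MET, the receptor of hepatocyte growth factor, differed by 0.40 (adjusted p = 0.135). It was 1.23 above miR-182-iso (adjusted p = 0.00314) and 0.22 below miR-27a. The SMAD transcription factors of TGFβ and BMP signaling lay close to the unrelated mean, with differences of -0.06 for SMAD3, -0.24 for SMAD4 and -0.19 for SMAD5. The TGFβ receptor TGFBR2 had 8.06 and 7.89, below all other libraries (8.16 to 9.09), with a difference of -0.46 (adjusted p = 0.119). A second TGFBR2 probe had 8.27 and 7.92, within the 7.87 to 8.80 of the others, and gave -0.15 (adjusted p = 0.537). CHUK (0.08) and TAB2 (-0.07), of the NF-κB pathway, had intervals from -0.37 to 0.53 and from -0.33 to 0.19. PRDX3, a mitochondrial peroxidase, had the largest negative value, -1.23 (adjusted p = 0.0691), with 10.08 and 10.61 against 10.15 to 13.07. SPRY2, LAMP1, LPP, SEMA6A, CNN2, VHL, MAP3K1, FBXO32, HES1, RRAS2 and FZD7 lay between -0.11 and 0.35.

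**Figure D4:**
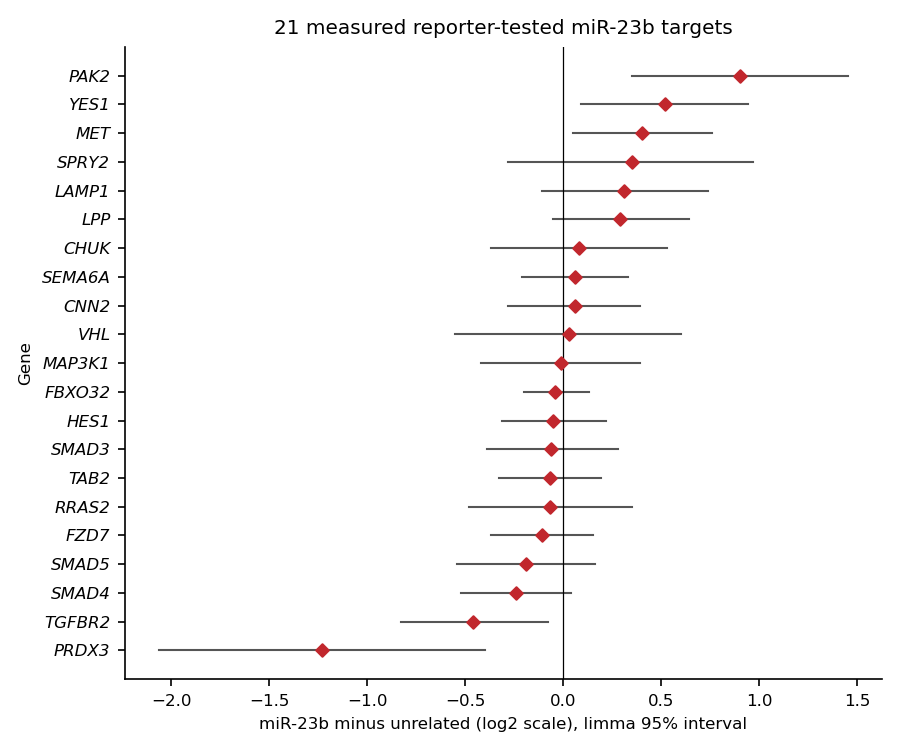
Difference between miR-23b and the unrelated duplexes (x axis, log2 scale) with limma's 95% interval for the 21 measured reporter-tested targets (y axis). They range from 0.90 for PAK2 to -1.23 for PRDX3, and 16 of the 21 intervals include 0.

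Gene lists were read by how many measured members passed the threshold, beside the 6.67% higher and 3.25% lower of all genes. The lists were chosen with earlier results of these data known, so their shares are a description and not a test. In clathrin-mediated endocytosis, 5 of 24 members were higher (20.8%) and none lower, with a median difference of 0.14. Beside EPN1, these were AP2S1 and AP2B1, subunits of the AP-2 adaptor that links cargo to clathrin, NUMB, an endocytic adaptor and NOTCH inhibitor, and EPS15L1. AP2S1 had 14.15 and 14.11 against 12.37 to 13.33, a difference of 1.12 (SE 0.16, adjusted p = 0.00548), and 0.87 on a second probe. AP2B1 differed by 0.89 and by 0.69 on its second probe, and NUMB by 0.62 on each of 2 probes. EPN1 alone remained called when either miR-23b library was left out, and 3 members were called when either miR-182-iso library was left out.

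Among 23 apoptosis genes, 4 were higher (17.4%) and none lower, all with small differences. BCL2L1, an inhibitor of cell death, differed by 0.56, and BID, HTRA2 and BBC3, which promote it, by 0.52, 0.53 and 0.29. BCL2L1 was as high with miR-182-iso (10.29 and 10.29) as with miR-23b (10.10 and 10.28), BBC3 lay near the bottom of the scale, and second probes of BID and HTRA2 gave 0.09 and -0.11. In glutamine and proline metabolism, 3 of 19 genes were higher. SLC7A5, a subunit of the amino acid exchanger that trades glutamine for leucine, differed by 1.23, the glutamine transporter SLC38A2 by 0.92 and PYCR1, of proline synthesis, by 0.89, and a second PYCR1 probe near the bottom of the scale gave -0.02. CTPS1, which uses glutamine to make CTP, was lower (-0.67). None of the apoptosis genes and none of the 3 higher glutamine and proline genes passed with either miR-23b library left out, nor did the latter 3 without miR-182-iso replicate 2. In the peroxisome list, MPV17 (0.75), a relative of PXMP2 now placed in the inner mitochondrial membrane, was higher beside PXMP2, of 23 genes, and catalase, CAT (-0.79), and the thiolase ACAA1 (-0.57) were lower. CAT and ACAA1 were highest with miR-182-iso, at 9.08 and 9.42 and at 8.82 and 8.89, and neither was called when a miR-23b library was left out.

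In oxidative phosphorylation, 8 of 63 nuclear-encoded genes were called lower (12.7%) and 1 was called higher, and the list had a median of -0.14 beside -0.01 for all genes. The largest of these were the ATP synthase subunits ATP5PO (-1.54) and ATP5PB (-0.90), the complex I subunit NDUFA7 (-0.97) and COX5A of cytochrome c oxidase, given above. The complex I subunit NDUFB2 was higher by 0.53. ATP5PO had 10.92 and 11.15 with miR-23b, close to the 10.67 to 11.77 of the miR-17 family, and 12.68 to 13.72 with miR-27a and miR-182-iso. Leaving out the miR-182-iso libraries reduced the 8 to 2, and leaving out the miR-27a libraries raised it to 16. With either miR-23b library left out only COX5A was called lower, and without miR-182-iso replicate 1 it was 5.

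Of 30 proteasome subunits, 5 were lower (16.7%), 1 was higher, and only 5 had a positive difference, with a median of -0.27. PSMD1 and PSMC2 of the regulatory particle differed by -1.06 and -0.90, and PSMA1 of the core by -0.98, beside PSMB3 and PSMD2 (-0.33). PSMA1 had 10.78 and 10.94, below all other libraries (11.09 to 12.54). PSMB10, an interferon-inducible core subunit that replaces a constitutive one, went the other way, with 11.25 and 11.12 against 8.89 to 10.60 and a difference of 1.19. No subunit was called lower without miR-23b replicate 1, 1 without replicate 2 and 3 without miR-182-iso replicate 2.

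**Figure D5:**
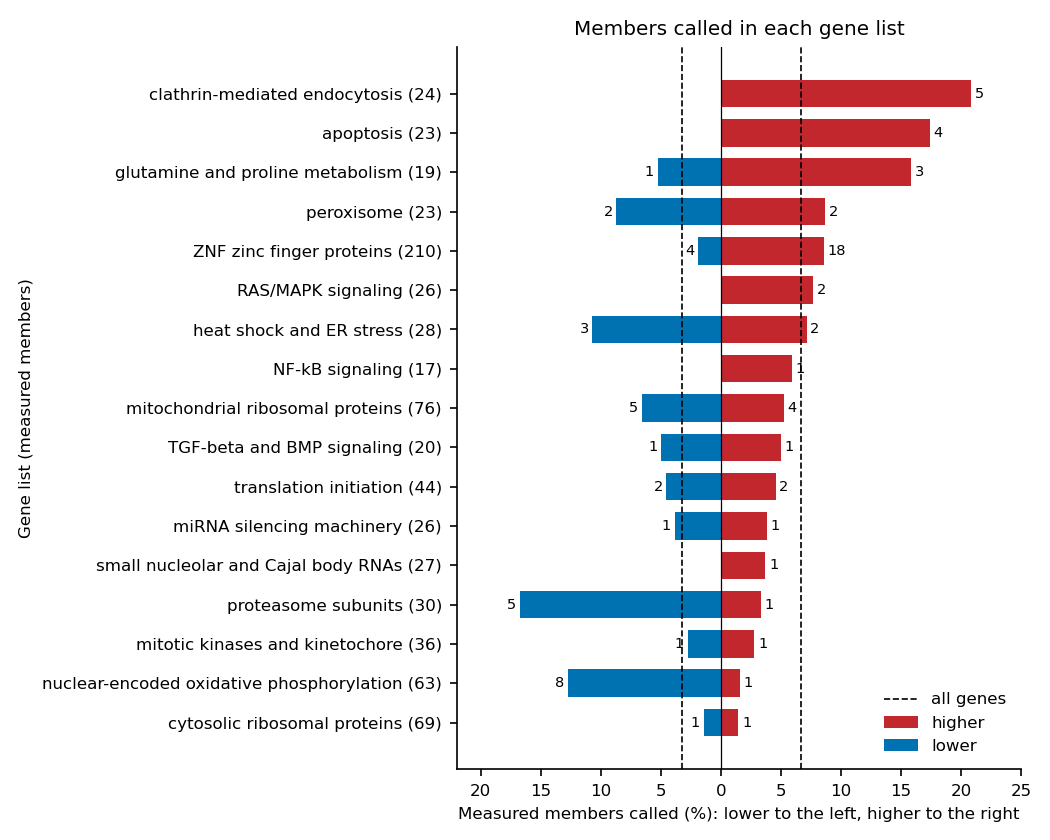
Share of the measured members of each gene list (y axis, number measured in parentheses) called higher (to the right) or lower (to the left) with miR-23b, in percent (x axis), with the count at each bar and dashed lines at the 6.67% and 3.25% of all genes. Clathrin-mediated endocytosis reaches 20.8% higher with no lower member, and proteasome subunits reach 16.7% and oxidative phosphorylation 12.7% lower. Lists with no call and 1 list that is not reported are left out. The lists were chosen with earlier results of these data known.

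Ribosomal and translation genes went in both directions, and are read beside the 6.67% higher and 3.25% lower of all genes. The shares higher and lower were 1.45% and 1.45% for cytosolic and 5.26% and 6.58% for mitochondrial ribosomal proteins. For translation initiation they were 4.55% and 4.55%. Of 69 cytosolic ribosomal protein genes, RPL11 was higher (0.53) and RPS3 lower (-0.83, with 14.44 and 14.34 for miR-182-iso against 12.53 and 12.43 for miR-23b), and neither was called with a miR-23b library left out. Probes for such genes can also bind transcripts of their processed copies. Of 76 mitochondrial ribosomal protein genes, 4 were higher and 5 lower. MRPS12 had a miR-23b mean of 12.09 (SD 0.12, n = 2), with both libraries above the 10.41 to 11.50 of the others, a difference of 1.38. Its further probes gave 0.82 and, near the bottom of the scale, -0.05. MRPL13 differed by 1.22. MRPL3 (-1.08), MRPL9 (-0.91) and MRPS30 (-0.71) were lower and close to miR-27a, from which they differed by -0.40, -0.12 and -0.11. A second MRPL3 probe near the bottom of the scale gave -0.14. No member of this list was called with either miR-23b library left out. Of 44 translation initiation genes, EIF2D and EIF4EBP2 (0.94), a repressor of cap-dependent initiation, were higher, and EIF6 and EIF3H (each -0.72) lower. EIF6 had 10.31 and 10.04, close to the 9.79 to 10.06 of miR-27a and below the 11.08 to 11.85 of the rest. Of these 4, only EIF2D was called with either miR-23b library left out.

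Of 210 ZNF zinc finger genes, 18 were higher (8.57%) and 4 lower (1.90%), with a median of 0.01. ZNF580 (1.51), ZNF682 (1.24) and ZNF385A (1.01) followed ZNF358, and a second ZNF580 probe near the bottom of the scale gave 0.02. ZNF682 had 13.21 and 13.25 with miR-23b and 12.87 to 12.97 with miR-27a, a difference of 0.31, and differed by 2.05 from miR-182-iso. ZNF443 (-0.82) was near the bottom of the scale in all libraries but those of the miR-17 family, where it had 8.52 to 9.91. With either miR-23b library left out, 1 member was higher and none lower, and without miR-182-iso replicate 2, 8 were higher and none lower. Among 27 small nucleolar and Cajal body RNAs, SNORA64 was the only call.

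Calls in the signaling lists were read beside the 6.67% higher and 3.25% lower of all genes. The shares higher and lower were 5.88% and 0.00% for NF-κB, 5.00% and 5.00% for TGFβ and BMP, and 7.69% and 0.00% for RAS/MAPK. In NF-κB signaling TNIP1, an inhibitor of the pathway, was higher by 0.75, 1 of 17. In TGFβ and BMP signaling the corepressor TGIF2 was higher by 0.78 and ID3, a BMP-induced gene, lower (-0.98), of 20, and ID3 had 10.45 to 11.13 with miR-27a beside 8.89 and 9.42 with miR-23b. In RAS/MAPK signaling MAPK3, which encodes ERK1, was higher by 1.26, with 11.30 and 11.21 against 9.21 to 10.84 and 1.12 on a second probe. MAPK7, also of these 26 genes, was higher by 0.37, and its second probe near the bottom of the scale gave -0.04. The small heat shock protein HSPB1 rose by 1.17 and the chaperone CALR by 0.84, of 28 heat shock and ER stress genes. In the same list HSPE1 (-1.06), HSP90B1 (-0.99) and XBP1 (-0.52) were lower (10.7%). Second probes of HSPE1 and XBP1 gave -0.25 and -0.48, and neither was called. HSP90B1 had 12.86 to 13.87 with the miR-17 family and differed by -0.16 from miR-27a and by -0.45 from miR-182-iso. All called genes of this paragraph lost their call without miR-23b replicate 1, and all but HSPB1 and HSP90B1 also without replicate 2.

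Of 36 mitotic genes, only MIS12 and KIF2A were called. In the miRNA silencing machinery XPO5, which exports miRNA precursors, was higher (0.36) and the deadenylase subunit PAN2 lower (-0.41), of 26. MIS12, KIF2A, XPO5 and PAN2 each lost their call with either miR-23b library left out. No member was called among 27 genes of G1/S control, 9 interferon-stimulated genes, 8 genes of biotin enzymes and transport and 9 replication-dependent histone genes. At an unadjusted limma p under 0.05, these lists had 3 higher and 3 lower, 0 and 0, 0 and 1, and 0 and 1. The member furthest from 0 was CKS1B (-0.72, adjusted p = 0.0775) for G1/S control, EIF2AK2 (-0.64), the kinase PKR, for interferon-stimulated genes, ACACA (-0.57), a biotin-carrying carboxylase, for biotin, and H4C3 (-0.22) for histones.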

How the data were processed

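Pull-down RNA of HEK293T cells was hybridized to Illumina HT-12 bead arrays. The deposited log2 values had been made by the authors with lumi 2.2.1, by background adjustment, a variance-stabilizing transformation and robust spline normalization, with only probes detected in mock-transfected controls kept. The scale compresses dim probes, so their differences are understated. The study as a whole used more than 1 array version, and no source used here says which version each of these 13 libraries was on. A non-normalized table was not used, because its 26 signal and detection columns carry names that match no sample.

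Of 12007 probes, 10444 had 1 gene symbol, 1 had several and 1562 none. RefSeq (GRCh38.p14) matched 10442 by gene ID. The probe with the highest mean represented each of 8378 genes, of which 1791 had several probes. No pair of libraries had identical values.

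All 5 groups were fitted in 1 model with limma 3.58.1 under R 4.3.3 (lmFit and eBayes on the contrasts), two-sided, with Benjamini-Hochberg adjustment over all probes and calls at 0.05. The study carried out the pull-down of each miRNA in duplicate or triplicate. Nothing in the sources says that these replicates came from separate cultures. The p-values therefore measure the spread between these libraries, which may be technical, and the number of libraries limits the precision. The fit was tested on simulated data. Replicate numbers did not pair the samples of all groups, as given with the alternatives. Duplex sequences came from the study's table of oligonucleotides. Tables were made with pandas 2.3.3 and numpy 2.4.6 and plots with matplotlib 3.10.9, under Python 3.11.15.

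The members and the 25 gene lists were chosen with earlier results of these data known, and 1 of the lists is not reported here. Named were the 14 highest and 8 lowest differences of called genes whose miR-23b libraries both lie beyond all 11 others, with their further probes, the measured reporter-tested targets, up to 4 of the largest called members per list and direction, and, in a list with no call, the member furthest from 0. Further probes of other genes, EPS15L1 and PSMD2 were added after their values were seen.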

Additional observations from a re-analysis of the deposited data

How the results depend on the processing

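Under the alternatives run, the number of probes higher (710) and lower (360) moved by over 1.5 times at an adjusted p under 0.01 (112 and 41), when the miR-182-iso libraries were left out (378 and 171), without the miR-27a libraries (1179 and 935) and with array weights (1520 and 1240), and the cause was not tested. Leaving out each library in turn gave 32 to 816 higher and 8 to 490 lower probes. The lowest came without miR-23b replicate 1 (32 and 8), followed by miR-23b replicate 2 (48 and 14) and miR-182-iso replicate 2 (369 and 176), and a fit with 1 miR-23b library has fewer samples by construction. One-sided tests gave 860 higher probes. With the replicate block, 753 were higher and 372 lower, and 7 of 83 called named genes lost their call, among them SLC38A2, NDUFB2, MAPK7, XPO5, MRPS15 and ZNF319. Same-numbered libraries deviated together with r over 0.1 in 12 of 23 pairs (range -0.33 to 0.63). Deviations were taken from the group mean, and those of a group with 2 libraries mirror each other, so these pairs are not independent. For miR-23b, r with the same-numbered library was 0.59 and 0.53 for miR-27a, 0.57 and 0.45 for miR-17-5p-iso, 0.14 and 0.14 for miR-182-iso, and -0.22 and -0.32 for miR-17-5p. All 8 pairs below 0 held a miR-17-5p library, so a pairing of all groups by number was not met. No named gene that was called changed sign. Signs changed only for uncalled genes. Without the miR-182-iso libraries the differences were -0.01 for MET, -0.39 for CHUK, -0.34 for VHL and 0.07 for VIM. Without miR-27a they were -0.05 for SEMA6A, -0.08 for CNN2, 0.33 for MAP3K1, 0.08 for HES1 and 0.02 for TAB2. Without the miR-17 family they were -0.08 for CNN2, 0.00 for FBXO32 and 0.11 for SMAD3. With equal weight for each duplex MAP3K1 was at 0.03, with array weights at 0.00, and with the replicate block VHL was at -0.01. With single libraries left out, the ranges of genes that changed sign were -0.02 to 0.17 for CHUK, -0.07 to 0.18 for CNN2, -0.01 to 0.09 for COL1A1, -0.16 to 0.21 for VHL, -0.10 to 0.07 for MAP3K1, -0.08 to 0.00 for FBXO32, -0.12 to 0.03 for HES1 and -0.17 to 0.06 for SMAD3. PAK2 passed the threshold with one-sided tests, equally weighted duplexes, array weights, a robust trended prior, only bright probes, without the miR-27a libraries and without miR-17-5p replicate 1, miR-17-5p replicate 2 or miR-182-iso replicate 1. PRDX3 was called lower with the replicate block, array weights, a robust trended prior, only bright probes, without the miR-27a libraries, and without miR-17-5p-iso replicate 1 or miR-27a replicate 1. YES1, MET and CKS1B passed without the miR-27a libraries and with array weights, YES1 also without miR-17-5p replicate 2, CKS1B also without miR-27a replicate 1, and TGFBR2 with array weights. Of 1175 list counts, 867 stayed within 1.5 times of the main value. These include lists with no call in a direction that stayed without one, and the list that is not reported. The share is therefore no measure of stability. The planned neqc normalization of raw signals was not run, since their columns could not be mapped to samples. VST compression limits differences of dim probes.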
